A study of Mus musculus with 2 samples.

Results

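Cytosolic sensors of foreign or misplaced nucleic acid were examined across the immune cells of B16F10 melanomas. The set was 10 genes taken by symbol from the 27998 genes of the feature table: the RNA helicases Ddx58 (RIG-I), Ifih1 (MDA5) and Dhx58 (LGP2), their adaptor Mavs, the DNA sensor Mb21d1 (cGAS) with its adaptor Tmem173 (STING), the Z-nucleic-acid receptor Zbp1, the RNA-activated kinase Eif2ak2 (PKR), the DNA exonuclease Trex1 and the dNTP hydrolase Samhd1. Members were taken by symbol, and no sensor served as a cell type marker.

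RIG-I and MDA5 recognise double-stranded RNA in the cytosol and signal through MAVS on mitochondria, while LGP2 modulates both. The enzyme cGAS recognises cytosolic DNA and makes a cyclic dinucleotide that activates STING, and TREX1 and SAMHD1 restrain these pathways by degrading DNA or depleting nucleotides. Both arms lead to type I interferon, and many of the sensors are themselves interferon-induced genes, so that the pathway feeds back on its own receptors. In tumors, myeloid cells are a known site of cGAS and STING signalling.

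The cells were live and CD45+, sorted at day 14 from tumors of the mouse melanoma line B16F10 that had been injected under the skin of C57BL/6 hosts, and were profiled with 10x Genomics droplet 3' chemistry. Both groups carried the floxed Usp18 allele: control hosts were Usp18f/f, and the others were Usp18f/f LysM-Cre, in which Cre is expressed from the Lyz2 locus of monocytes, macrophages and neutrophils. USP18 removes ISG15 from proteins and dampens signalling from the type I interferon receptor, and the study asked what its loss in myeloid cells does to the immune cells of the tumor. Cells of 4 tumors were pooled into 1 library per group, so every difference lies between 2 pools, no test between groups was possible, and all intervals cover counting error only.

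The targeted gene went against its label. Usp18 stood at 19.1 CPM (UMIs of a gene per 1000000 UMIs of the class) in control mononuclear phagocytes, which are the monocyte-like, macrophage-like and intermediate cells together, and at 79.5 CPM in the library labelled knockout, 4.16-fold higher (95% interval 3.62 to 4.80). The labels do not say which exons the floxed allele removes, and a 3' count can also see transcripts that lack an upstream exon, so this value does not measure the deletion. Lyz2, which the Cre insertion disrupts, stood at 9752 CPM in control and 17.7 CPM in the other library. "The library labelled knockout" is therefore used throughout.

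The control library held 7754 barcodes with 43412346 UMIs (median 2600 per barcode), the library labelled knockout 6063 with 48167632 (median 4455), and 8 barcodes occurred in both. After filters, 84.9% of the kept barcodes in each library passed a gate on marker genes into 12 classes. The gate left 721 control and 992 labelled-knockout monocyte-like cells, 677 and 1074 macrophage-like, 1368 and 836 T-cell-like, 1225 and 378 B-cell-like and 260 and 198 NK-cell-like cells. Melanoma-like cells, 151 and 364 in spite of the CD45 sort, served as a class of another lineage. The labels give no sex, but transcripts of both sexes were present in different shares: cells with Xist but no Y-linked transcript made up 33.1% of the sexed monocyte-like cells in control and 90.8% in the library labelled knockout. Sex and genotype are thus partly mixed, and differences in monocyte-like and macrophage-like cells and several in other classes are also given within cells of each sex.

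The 3 sensors below carry, close to their annotated start, the core of the interferon-stimulated response element (ISRE), a sequence through which type I interferon activates genes. They are shown because they were the sensors whose promoter, where read, held the core, and the differences between the libraries played no part in this choice. The core was searched as GAAA, any 2 bases, GAAA on both strands of RefSeq promoters on GRCm38.p6 (250 bases before to 50 after the start). Capitals mark the match, read on the gene's own strand.
Ddx58: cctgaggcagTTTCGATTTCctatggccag
Ifih1: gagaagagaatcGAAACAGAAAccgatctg
Eif2ak2: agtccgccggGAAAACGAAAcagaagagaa
The windows lie on the minus strand at chr4:40239804-40239833, chr2:62646206-62646235 and chr17:78882535-78882564. The match covers bases 3 to 12 of the transcribed side in Ddx58, on the opposite strand, bases 33 to 42 in Ifih1 and bases 19 to 28 in Eif2ak2, with the start as base 1. Among the 7 sensors whose promoter was read (8 promoters), 3 held the core, against 3.44% of 32851 promoters of all genes. The promoters of Dhx58, Zbp1 and Tmem173 were not read, so whether they hold the core is not known here. The entries of Mavs, Mb21d1, Trex1 and Samhd1 did not hold the ISRE core. A second core, TTC, any 3 bases, GAA (GAS), was also searched. It was found in 2 of the 7 sensors, Eif2ak2 and Samhd1, against 8.30% of all promoters. A match describes letters in a window and does not show binding.

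In monocyte-like cells, 6 of the 9 measured sensors were higher in the library labelled knockout by at least 1.5-fold on the log2(CPM + 5) scale, and 0 were lower. They were the 3 helicases Ddx58, Ifih1 and Dhx58, the DNA sensor Mb21d1, the Z-nucleic-acid receptor Zbp1 and the RNA-activated kinase Eif2ak2. Of all genes measured there with 20 or more UMIs, 4.32% were higher and 3.41% lower by that much. The median log2 difference was 0.98 over the 9 sensors and -0.06 over all genes. The adaptors Mavs and Tmem173 and the hydrolase Samhd1 stayed under the fold.

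The 3 helicases moved alike in monocyte-like cells. Ifih1, the receptor of long double-stranded RNA, stood at 40.4 CPM in control (95% interval 34.6 to 47.0) and 132 CPM (122 to 142) in the library labelled knockout, 3.26-fold higher (2.75 to 3.87). Ddx58, the receptor of RNA with a free triphosphate end, stood at 41.6 and 120.2 CPM, 2.89-fold higher (2.44 to 3.43). Dhx58, the helicase without a signalling domain, stood at 31.4 and 91.7 CPM, 2.92-fold higher (2.41 to 3.57). For none of the 3 did the intervals of the 2 libraries overlap. Macrophage-like cells started from close to the same control levels but showed smaller differences, with Ifih1 at 37.4 and 67.3 CPM (1.80-fold, 1.57 to 2.08), Dhx58 at 31.5 and 48.1 CPM (1.53-fold, 1.31 to 1.79) and Ddx58 at 37.5 and 55.0 CPM (1.46-fold, 1.27 to 1.69). Only Ifih1 among them passed the threshold once the pseudocount was added.

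Outside the mononuclear phagocytes the helicases parted by cell class. In control, Ddx58 stood at 92.8 CPM in NK-cell-like, 66.7 CPM in B-cell-like and 60.6 CPM in T-cell-like cells, each above the monocyte-like interval of 35.7 to 48.3 CPM. Neutrophil-like cells, with 66.2 CPM from 33 UMIs, lay between the B-cell-like and T-cell-like values, and in the library labelled knockout they were first in the order, at 139 CPM from only 7 UMIs in 25 barcodes. There the lymphoid classes had 61.7, 74.5 and 62.6 CPM, with fold intervals of 0.439 to 0.999, 0.794 to 1.55 and 0.855 to 1.25. The order of classes for Ddx58 therefore changed between the libraries, with 4 of the 12 classes above monocyte-like cells in control and 2 in the other. B-cell-like cells carried Ddx58 with almost no Ifih1, at 6 UMIs (3.10 CPM) in control and 2 UMIs (2.87 CPM) in the library labelled knockout. Control plasmacytoid-DC-like cells had 1 UMI of Ddx58 (1.54 CPM) and 29 of Ifih1 (44.5 CPM), but 1 barcode held 21 of these 29, and without it Ifih1 stood at 12.4 CPM. Dhx58 was low in lymphoid cells of both libraries, between 2.87 and 12.8 CPM.

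Dendritic cells shared part of the pattern. In type 2 conventional cells (cDC2-like), Ddx58 stood at 30.5 and 71.0 CPM (2.33-fold, 1.74 to 3.14) and Ifih1 at 35.7 and 66.5 CPM (1.86-fold, 1.40 to 2.48), whereas Dhx58 stood at 28.4 and 33.0 CPM (1.16-fold, 0.812 to 1.66). Type 1 cells (cDC1-like), which take up dead tumor cells, held little Ddx58, with 7 UMIs (3.98 CPM) in control and 21 UMIs (13.5 CPM) in the library labelled knockout. Their Ifih1 stood at 23.3 and 46.9 CPM (2.01-fold, 1.36 to 3.03). Migratory-DC-like cells showed Ifih1 at 34.9 and 72.8 CPM (2.08-fold, 1.35 to 3.32). In all, 4 of 9 measured sensors were higher past the fold in cDC1-like cells (3.93% of all genes), 4 of 9 in cDC2-like cells (3.99%) and 4 of 8 in migratory-DC-like cells, where 15% of all genes were. In the library labelled knockout plasmacytoid-DC-like cells had Ifih1 at 15.95 CPM, from 6 UMIs in 80 barcodes. Against the control level without its 1 dominant barcode this was 1.29-fold (0.368 to 4.23), so no direction is given. One control barcode also held 12 of the 41 Ifih1 UMIs of cDC1-like cells, and without it the fold there was 2.83 (1.82 to 4.52).

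Within each sex, Ddx58 in cDC2-like cells was 1.55-fold (0.928 to 2.75) with Xist, just under the threshold. With Y-linked transcripts it was 1.89-fold (0.759 to 4.11), on 37 and 8 UMIs, and both intervals span 1. Ifih1 in cDC2-like cells was 2.21-fold (1.19 to 4.56) with Xist and 1.71-fold (0.809 to 3.30) with Y-linked transcripts. In migratory-DC-like cells Ifih1 was 1.59-fold (0.645 to 5.06) and 2.44-fold (1.03 to 5.52). These Ifih1 values rest on 5 to 107 UMIs a group. Markers of other lineages were also higher in these classes. In migratory-DC-like cells the 10 monocyte markers summed to 147 CPM in control (2 at 0) and 915 CPM in the library labelled knockout (0 at 0), the 10 macrophage markers to 673 and 1113 CPM and the 8 T cell markers to 72.4 and 539 CPM (0 at 0 in both lists). The T cell markers summed to 19.3 and 127 CPM in cDC1-like cells (1 and 0 at 0) and to 34.8 and 158 CPM in cDC2-like cells. Without barcodes holding 2 or more UMIs of lymphoid markers, the log2 difference of Ifih1 was 1.00 in migratory-DC-like, 0.66 in cDC1-like and 0.64 in cDC2-like cells, past the threshold of 0.58 in each. The part of the monocyte and macrophage transcripts was not tested.

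**Figure D1:**
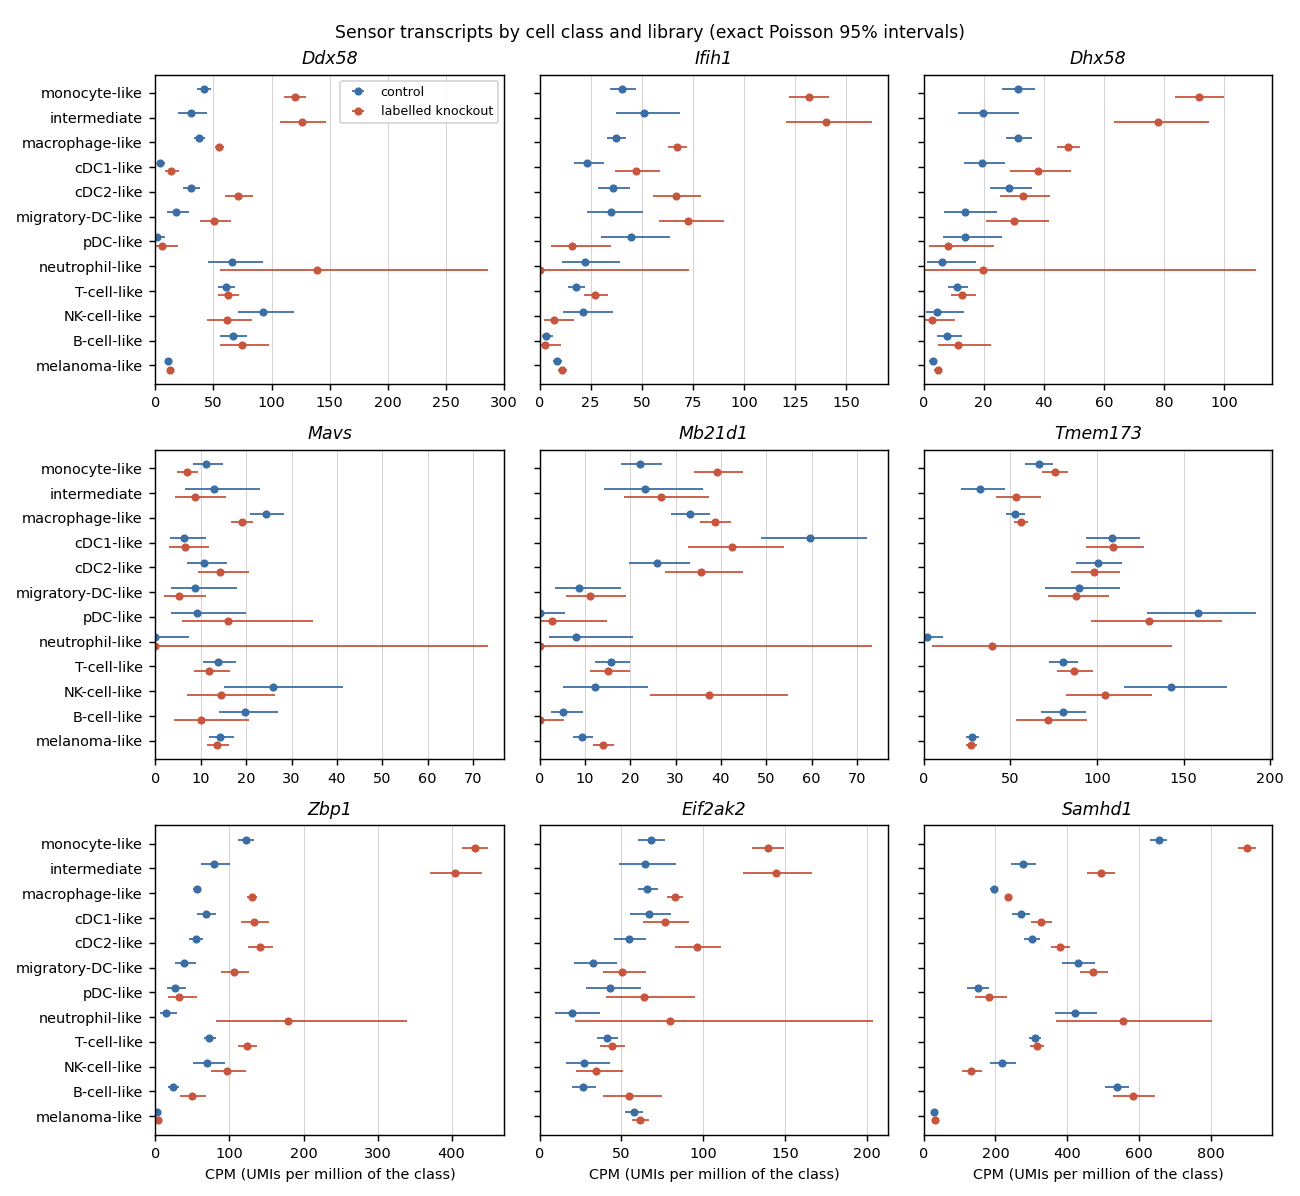
CPM of 9 sensor genes in 12 cell classes, control in blue and the library labelled knockout in red, with exact Poisson 95% intervals; 25 neutrophil-like and 80 pDC-like barcodes in the library labelled knockout give the widest bars. Zbp1, Ifih1 and Ddx58 separate the libraries in monocyte-like and intermediate cells, while Tmem173 overlaps between them in most classes.

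Mavs, through which both RNA receptors signal, was not higher with them. In monocyte-like cells it stood at 11.2 CPM in control and at 6.84 CPM in the library labelled knockout (0.612-fold, 0.387 to 0.962), from 47 and 37 UMIs, and in macrophage-like cells at 24.4 and 19.0 CPM (0.781-fold, 0.639 to 0.957). Both intervals lie below 1, but neither difference passed the 1.5-fold threshold with the pseudocount. Within each sex the monocyte-like ratio was 1.002 (0.407 to 2.96, from 6 and 28 UMIs) with Xist and 0.578 (0.111 to 1.90, from 24 and 3) with Y-linked transcripts, so it did not hold in cells with Xist. In macrophage-like cells these ratios were 0.621 (0.445 to 0.877) and 0.774 (0.549 to 1.08). The 5 clusters of mononuclear phagocytes with 50 or more cells in each library come from the same 2 pools and are not replicates. Mavs was lower in 5 of 5 of the labelled-knockout values, but the intervals of the 2 libraries overlapped in each. It stood at 18.8 and 8.72 CPM in the Cxcl9-led monocyte cluster and at 9.83 and 8.49 CPM in the Chil3-led one. Among lymphocytes it passed the threshold downward, at 25.9 and 14.3 CPM in NK-cell-like cells (17 and 10 UMIs) and at 19.7 and 10.0 CPM in B-cell-like cells (38 and 7 UMIs), with fold intervals that span 1 (0.227 to 1.28 and 0.192 to 1.16). Without the 1 barcode holding most Mavs UMIs, the NK-cell-like log2 difference was -0.53, under the threshold. Of all genes, 15.5% were lower past the fold in NK-cell-like and 8.7% in B-cell-like cells. Neighbouring classes in the order of Mavs levels overlapped in 11 of 11 pairs in each library.

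The DNA-sensing pair differed from each other. Mb21d1 stood at 22.1 CPM in control monocyte-like cells and at 39.2 CPM in the library labelled knockout (1.77-fold, 1.38 to 2.29). Within cells of each sex its ratio was 1.26 (0.846 to 1.94) with Xist and 1.23 (0.594 to 2.37) with Y-linked transcripts, both under the threshold. In macrophage-like cells it stood at 33.1 and 38.7 CPM (1.17-fold, 0.998 to 1.37). Its highest control level was in cDC1-like cells, at 59.7 CPM (48.8 to 72.3), the one class that stood clear of its neighbour in the order. There the level in the library labelled knockout was 42.4 CPM (0.711-fold, 0.514 to 0.976). B-cell-like cells were near or at 0, with 10 UMIs in control and 0 in the other library, where a count of 0 allows up to 4.30 CPM.

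Tmem173 had the smallest log2 difference of the 9 measured sensors in monocyte-like, macrophage-like and cDC1-like cells. It stood at 66.4 and 75.6 CPM in monocyte-like cells (1.14-fold, 0.976 to 1.33), 52.6 and 56.2 CPM in macrophage-like cells (1.07-fold, 0.941 to 1.22), and 109 CPM in both libraries in cDC1-like cells (1.01-fold, 0.814 to 1.24). These intervals exclude a 1.5-fold difference in either direction. Between classes the spread was wider than between libraries, from 158 CPM in control plasmacytoid-DC-like cells through 143 CPM in NK-cell-like cells to 27.9 CPM in melanoma-like cells and 2.01 CPM (1 UMI) in neutrophil-like cells. Intermediate cells differed more, at 32.6 and 53.6 CPM (1.64-fold, 1.04 to 2.65), from 28 and 68 UMIs. In NK-cell-like cells Tmem173 was lower, with 94 and 73 UMIs and a log2 difference of -0.43, under the threshold. Without the 1 barcode holding most of its UMIs the ratio there was 0.689 (0.496 to 0.952).

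Zbp1, which binds left-handed nucleic acid and engages RIPK3 and MLKL in necroptosis, had the largest fold of the 9 measured sensors in monocyte-like and in macrophage-like cells. In monocyte-like cells it stood at 123 CPM in control (112 to 134) and 431 CPM (414 to 449) in the library labelled knockout, 3.52-fold higher (3.20 to 3.88). Intermediate cells went from 79.3 to 405 CPM between the libraries (5.11-fold, 3.96 to 6.68) and macrophage-like cells from 56.2 to 130.2 CPM (2.32-fold, 2.07 to 2.59). In the library labelled knockout, 20 of the 174 intermediate cells lay in a cluster led by interferon-induced genes and held 33.9% of the class's Zbp1 UMIs. In control 0 of 126 lay there. Zbp1 was also the sensor with a difference past the fold in the most classes: cDC1-like cells had 68.2 and 134 CPM, cDC2-like cells 54.2 and 141 CPM, and migratory-DC-like cells 38.7 and 106 CPM. Melanoma-like cells held 2.17 and 3.59 CPM, from 17 and 35 UMIs.

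T-cell-like cells, in which Cre from Lyz2 is not expected to act, had Zbp1 at 73.0 and 124 CPM (1.70-fold, 1.46 to 1.97). It was the only 1 of 9 measured sensors past the fold there, with 2.87% of all genes higher. Both subsets showed it, at 62.6 and 117 CPM in CD8 (1.87-fold, 1.49 to 2.36) and 95.8 and 170.5 CPM in CD4 T-cell-like cells (1.78-fold, 1.36 to 2.33). Within the subsets Ifih1 was also higher past the fold in CD8 cells, on 28 and 43 UMIs. Mb21d1 was lower past it in CD4 cells, on 19 and 5 UMIs. The 10 monocyte markers summed to 644 CPM in control and 1177 CPM in labelled-knockout T-cell-like cells and the 10 macrophage markers to 66.4 and 171 CPM, with none at 0. Without barcodes that held 2 or more UMIs of myeloid markers (monocyte, macrophage and neutrophil), 706 and 295 cells remained. The log2 difference of Zbp1 was then 0.50 in place of 0.72, under the threshold of 0.58. With Xist the ratio was 1.45 (1.13 to 1.87), and with Y-linked transcripts, from only 71 cells in the library labelled knockout, 2.27 (1.55 to 3.26).

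Eif2ak2, the kinase that stops translation by phosphorylating eIF2α, stood at 68.0 and 139 CPM in monocyte-like cells (2.05-fold, 1.78 to 2.35) but at 65.9 and 82.5 CPM in macrophage-like cells (1.25-fold, 1.12 to 1.40). Melanoma-like cells held 57.6 and 61.5 CPM (1.07-fold, 0.944 to 1.21), with intervals that overlapped the control macrophage-like one. In B-cell-like cells it stood at 26.4 and 54.5 CPM (2.06-fold, 1.32 to 3.21) and Zbp1 at 23.3 and 48.7 CPM (2.09-fold, 1.30 to 3.34), on 34 to 51 UMIs each. These were 2 of 7 measured sensors, with 3.13% of all genes higher. The 2 values were not stable. Without barcodes holding 2 or more UMIs of myeloid markers the log2 differences were 0.37 for Zbp1, under the threshold, and 0.86 for Eif2ak2. At a mitochondrial limit of 5%, which left 50 and 22 cells, they were -0.77 and -1.81. Zbp1 was 1.47-fold (0.731 to 2.99) with Xist and 6.37-fold (2.33 to 16.9) with Y-linked transcripts, the latter from 30 cells in the library labelled knockout, and Eif2ak2 1.94-fold (1.07 to 3.58) and 1.56-fold (0.166 to 7.31).

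**Figure D2:**
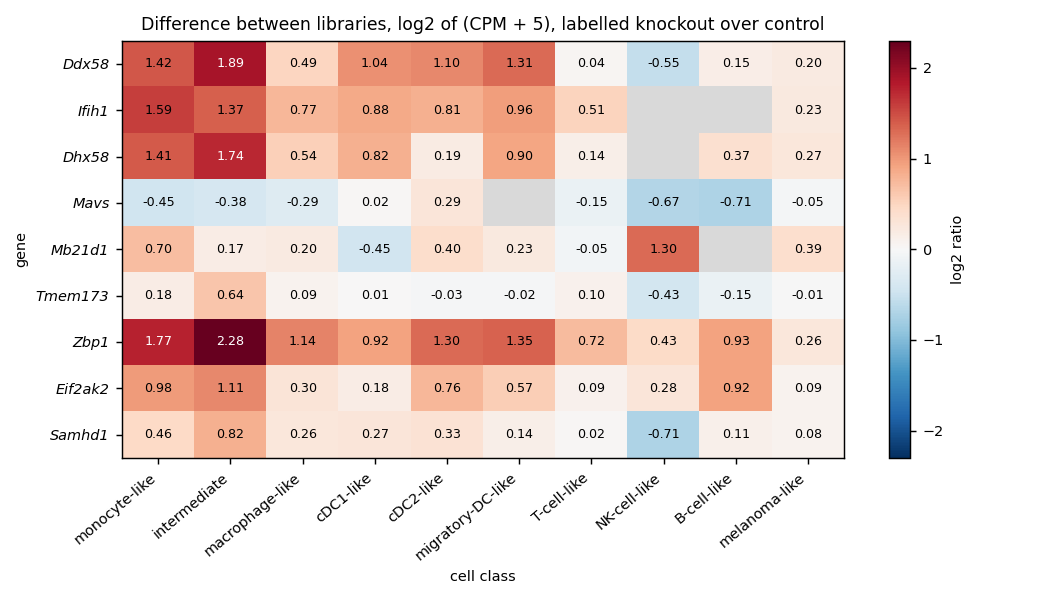
Log2 of (CPM + 5) in the library labelled knockout over control for 9 sensors (rows) in 10 cell classes with 100 or more cells per library (columns); grey marks genes under 20 UMIs over both libraries. The rows of Zbp1, Ifih1 and Ddx58 are highest in monocyte-like and intermediate cells (1.37 to 2.28), and the Tmem173 row lies between -0.43 and 0.64.

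Trex1 had 0 UMIs in every barcode of both libraries, which allows up to 0.714 CPM in control and 0.555 CPM in labelled-knockout monocyte-like cells. In the GENCODE M21 annotation all 1147 exonic bases of Trex1 (chromosome 9, 109057933 to 109059734, minus strand, GRCm38) lie within exons of Atrip on the same strand, and Atrip itself had 37 UMIs in each library. Reads from the shared bases fit both genes, so the 0 cannot be read as absence of the transcript.

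Samhd1, which empties the dNTP pool that reverse transcription needs, was above 100 CPM in every class except melanoma-like cells. Monocyte-like cells led the order with 654 CPM in control and at 900.4 CPM in the library labelled knockout (1.38-fold, 1.31 to 1.44), followed by B-cell-like cells with 538 and 583 CPM. In macrophage-like cells it stood at 196 and 234 CPM (1.198-fold, 1.12 to 1.28), and there the sexes went opposite ways: 1.48-fold (1.31 to 1.68) in cells with Xist and 0.797-fold (0.706 to 0.898) in cells with Y-linked transcripts. In T-cell-like cells the libraries had 311 and 315 CPM (1.01-fold, 0.933 to 1.10). NK-cell-like cells had it lower, at 219 and 132 CPM (0.603-fold, 0.459 to 0.788). It and Mavs were the 2 of 7 measured sensors past the fold downward there, where 15.5% of all genes were. The ratio of Samhd1 was 0.529 (0.348 to 0.816) with Xist and 0.542 (0.210 to 1.18) with Y-linked transcripts. Upward, where 6.72% of all genes were past the fold, NK-cell-like cells had only Mb21d1, on 8 and 26 UMIs (12.2 and 37.3 CPM). With Xist it had 2 and 25 UMIs (3.503-fold, 0.873 to 30.5) and with Y-linked transcripts 5 and 0.

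Macrophage-like cells had 2 of 9 measured sensors past the fold, Ifih1 and Zbp1, against 1.52% of all genes, and 0 lower, against 0.764%. Melanoma-like cells had 0 of 9 past it in either direction, where 0.452% of all genes were higher and 0.0957% lower. Intermediate cells, whose monocyte and macrophage scores lie close together, had 7 of 9, against 9.1% of all genes. In the library labelled knockout 20 of these 174 cells lay in the cluster led by interferon-induced genes. They held 39.9% of the class's Ifih1 and 33.8% of its Ddx58 UMIs. Cells with Xist made up 27.3% of the sexed intermediate cells in control and 90.7% in the library labelled knockout. No ratio within each sex was computed for this class. In monocyte-like cells 5 of the 6 sensors past the fold, Mb21d1 being the exception, passed it within each sex: Zbp1 was 3.20-fold (2.67 to 3.85) with Xist and 2.43-fold (1.94 to 3.04) with Y-linked transcripts, Ifih1 2.83-fold (2.09 to 3.92) and 2.34-fold (1.57 to 3.45), and Ddx58 1.82-fold (1.40 to 2.40) and 3.18-fold (2.10 to 4.79). Macrophage-like cells differed in this. There Zbp1 was 3.54-fold (2.80 to 4.55) with Xist but 1.44-fold (1.17 to 1.76) with Y-linked transcripts, and Ifih1 2.74-fold (2.001 to 3.83) and 1.32-fold (1.05 to 1.67). No sensor passed the threshold in macrophage-like cells with Y-linked transcripts (333 control and 230 labelled-knockout cells). Whether the part of sex and the part of genotype differ was not tested, as each sex and group is a single pool.

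**Figure D3:**
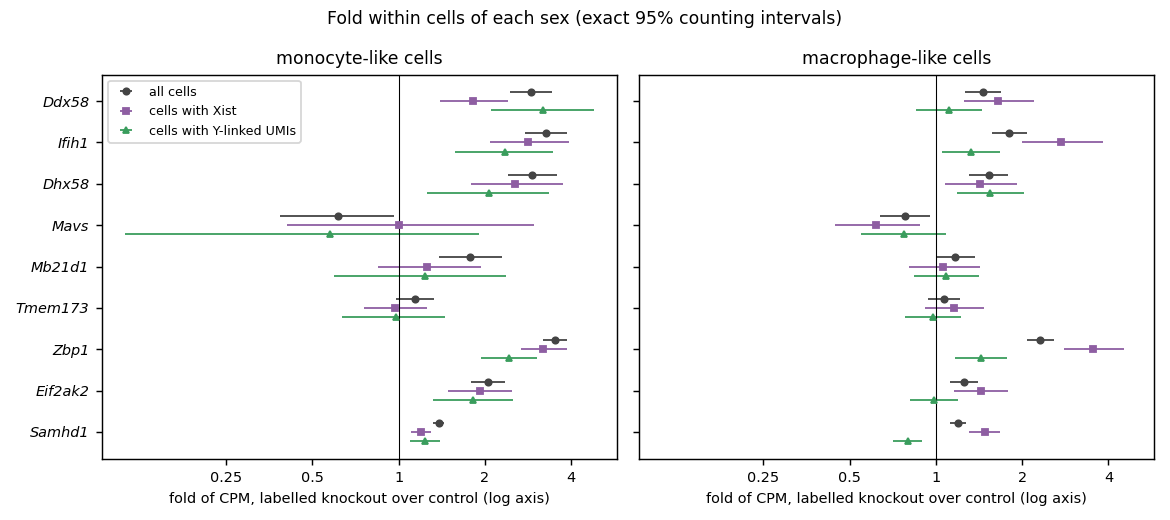
Fold of CPM, library labelled knockout over control on a log axis, for 9 sensors in all cells (grey circles), cells with Xist (purple squares) and cells with Y-linked transcripts (green triangles), with exact 95% counting intervals. In monocyte-like cells the 3 points of Zbp1 lie between 2.43 and 3.52, and in macrophage-like cells the Y-linked points lie at or under 1.55.

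Sensor transcripts were also counted per cell after each cell was thinned to 1000 UMIs. Transcripts of 2 or more of the sensors were found in 17.4% of control monocyte-like cells (14.6 to 20.4) and 39.5% (36.3 to 42.7) of those in the library labelled knockout, and in 7.55% (5.66 to 9.84) and 15.6% (13.4 to 18.0) of macrophage-like cells. T-cell-like cells had 10.6% and 12.5%, B-cell-like cells 9.82% and 11.8%, and melanoma-like cells 0% (0 of 149 cells, which allows up to 2.01% by the limit of 3 counts and 2.45% by the exact interval) and 1.59%. Zbp1 was seen in 9.61% and 31.9% of thinned monocyte-like cells, against 0.671% and 0.398% of melanoma-like cells, whose median depths were 50505 and 4338 UMIs. Unthinned, 38.003% and 72.3% of monocyte-like cells held a Zbp1 UMI, at median depths of 5551 and 5278.5 UMIs. In monocyte-like cells thinned to 1000 UMIs, the share with Ddx58 was 3.30% in control and 11.5% in the library labelled knockout. That with Tmem173 was 6.60% and 5.96%.

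**Figure D4:**
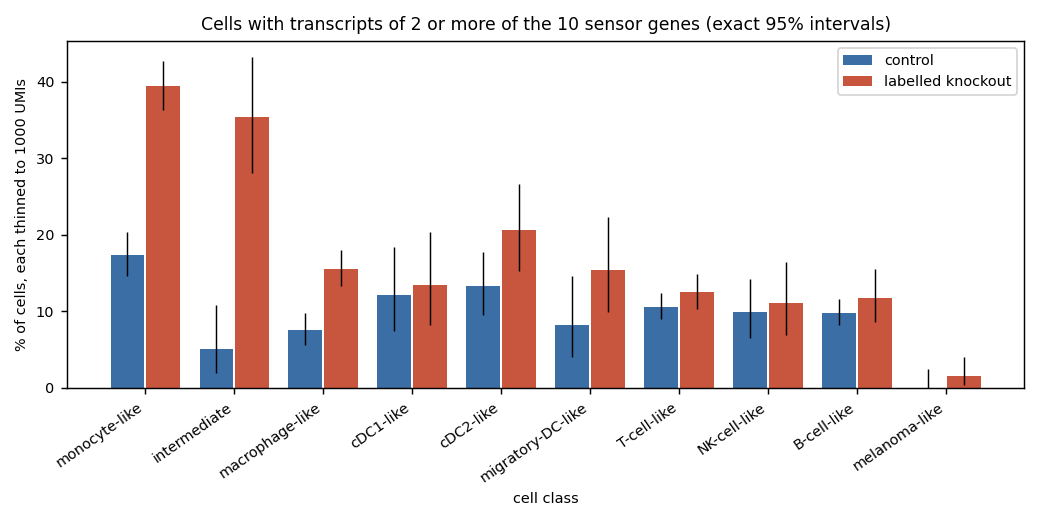
Percentage of cells with transcripts of 2 or more of the 10 sensor genes after thinning each cell to 1000 UMIs, control in blue and the library labelled knockout in red, with exact 95% intervals. Monocyte-like cells go from 17.4% to 39.5% between the libraries, while the intervals of the 3 lymphoid classes overlap.

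The clusters of mononuclear phagocytes, built without the sensors and without a list of interferon-induced genes, showed how the levels were spread. In the Chil3- and Ly6c2-led monocyte cluster Zbp1 stood at 143 and 461 CPM, Ifih1 at 42.8 and 141 CPM and Ddx58 at 51.5 and 110.0 CPM. In the cycling macrophage cluster, led by Mki67 and histone genes, the same genes stood at 39.0 and 65.3, at 35.7 and 45.5 and at 35.7 and 38.1 CPM. One cluster, led by Rsad2, Isg15, Cxcl10 and Ifit genes, held 2 barcodes of control and 170 of the library labelled knockout. Its 104 mononuclear phagocytes made up 4.64% of those in that library and held 19.3% of their Ddx58, 19.95% of their Ifih1, 14.0% of their Dhx58 and 16.8% of their Zbp1 UMIs, but 4.89% of their Tmem173 UMIs. Without this cluster the log2 differences in monocyte-like cells were 1.64 for Zbp1, 1.38 for Ifih1 and 1.18 for Ddx58, in place of 1.77, 1.59 and 1.42. In macrophage-like cells Ifih1 was then at 0.56, just under the threshold.

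**Figure D5:**
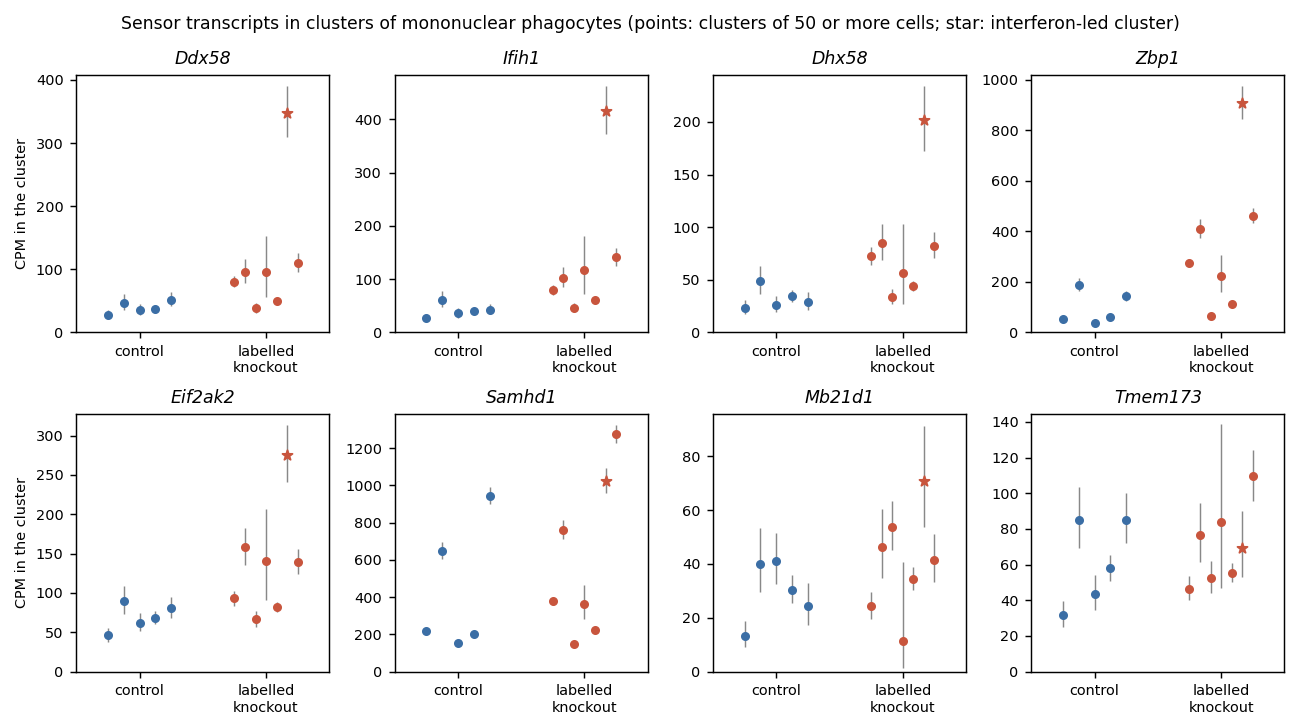
CPM of 8 sensors in each cluster of mononuclear phagocytes with 50 or more cells in a library (points, in cluster order from left to right within a library, with exact Poisson 95% intervals); the star is the cluster led by interferon-induced genes. Zbp1 reaches 906 CPM and Ifih1 416 CPM in the starred cluster, where Tmem173 is 69.5 CPM and within the range of the other clusters.

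Markers of the class and of other lineages were measured beside these differences. The monocyte markers summed to 12309 and 14581 CPM in monocyte-like cells and the neutrophil markers to 320.0 and 129 CPM, and erythroid markers in macrophage-like cells to 1.00 and 65.6 CPM; the part of the erythroid transcripts was not tested. A filter removed barcodes holding 2 or more UMIs of B, T or NK cell markers. The log2 differences in monocyte-like cells were then 1.75 for Zbp1, 1.57 for Ifih1 and 1.36 for Ddx58. The filter did not read neutrophil, macrophage or erythroid markers, and the part of the neutrophil transcripts was not tested.

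Among 48 other genes of the sensing pathways, 11 of 47 measured in monocyte-like cells were higher past the fold in the library labelled knockout and 0 were lower, against the 4.32% and 3.41% of all genes. Most were in the OAS branch, enzymes activated by double-stranded RNA: 6 of 7 genes there, with Oasl1 at 7.85 and 121 CPM (15.5-fold, 10.9 to 22.7), Oas3 at 41.9 and 168 CPM (4.01-fold, 3.41 to 4.74) and Oas1a at 23.8 and 86.0 CPM. Oas1a and Oas1g are near-identical copies, so their counts may be split between them.

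The signalling genes behind the adaptors had 1 of 9 past the fold, Irf7, the interferon-induced transcription factor, at 72.8 and 534 CPM (7.34-fold, 6.52 to 8.28). The constitutive factor Irf3 stood at 29.5 and 27.9 CPM and the kinase Tbk1 at 48.8 and 53.4 CPM. Of the RNA-sensing cofactors 1 of 8 passed, Ddx60 at 10.7 and 51.4 CPM (4.80-fold, 3.49 to 6.73), while Trim25, the ubiquitin ligase of RIG-I, stood at 95.6 and 123 CPM (1.29-fold, 1.13 to 1.46). The necroptosis executor Mlkl was the 1 of 7 ZBP1 and PKR effectors that passed, at 7.85 and 19.97 CPM (2.54-fold, 1.71 to 3.88), and Ripk3 stood at 40.4 and 56.4 CPM (1.39-fold, 1.15 to 1.69).

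The RNA-editing enzyme Adar, which keeps self RNA from MDA5, stood at 37.1 and 66.7 CPM (1.80-fold, 1.49 to 2.18), the 1 of 7 editing and clearance genes past the fold, and the endosomal receptor Tlr3 at 2.14 and 6.47 CPM on 9 and 35 UMIs, the 1 of 6 measured endosomal genes. None of the 3 other eIF2α kinases passed, unlike Eif2ak2. In macrophage-like cells 7 of 48 pathway genes were higher past the fold and 0 lower (all genes, 1.52% and 0.764%), with 5 of 7 in the OAS branch and Irf7 at 52.9 and 188 CPM (3.56-fold, 3.19 to 3.98). In T-cell-like cells 5 of 44 were higher, against 2.87% of all genes, with Irf7 at 30.4 and 57.3 CPM. Monocyte markers were also higher in these cells (644 and 1177 CPM), and the part of myeloid transcripts in the 5 genes was not tested. In NK-cell-like cells 2 of 29 were higher and 5 lower, where 6.72% and 15.5% of all genes were, so these counts lie near the background.

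Across 20 library-by-class sums, which share library, depth and lineage, the sensors did not follow 1 pattern. The highest correlation between 2 of them was Ifih1 with Dhx58 (Pearson r = 0.87 of log2(CPM + 5)), then Dhx58 with Eif2ak2 (0.80), and the lowest Dhx58 with Mavs (-0.41), while Ddx58 with Ifih1 had 0.24. Of 10971 genes compared, those most like each sensor were Irf7 (0.92) and Parp14 (0.92) for Zbp1, Chmp4b (0.93) and Isg15 (0.92) for Ifih1, Pnp (0.95) and Phf11d (0.94) for Dhx58, Parp12 (0.89) and Lyz1 (0.88) for Eif2ak2 and Pyhin1 (0.95) and Csrnp1 (0.94) for Samhd1. Ddx58 was most like Gm4955 (0.89) and Pdcd10 (0.87), Tmem173 like Dock10 (0.90) and Rab8a (0.89), Mb21d1 like Ssr4 (0.86) and Vamp3 (0.86), and Mavs like Cant1 (0.84) and D8Ertd82e (0.84).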

How the data were processed

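The authors deposited raw UMI counts per gene and barcode for 2 libraries, made with Cell Ranger 3.0.1 on mm10 per the submitters' processing notes. The feature table and the labels show no normalization. Filters required 200 genes and a mitochondrial share of 10% or less (Python 3.11.15, scanpy 1.11.5, scipy 1.17.1). The highest Scrublet scores were removed at 0.8% per 1000 barcodes, 477 control and 292 labelled-knockout barcodes. A barcode was gated to the class whose marker score (each marker scaled to its 99.5th percentile and averaged) was at least 1.5 times the next, with 2 or more markers present. This scoring rule was set after the data were seen. Of kept barcodes 15.1% in each library stayed ungated, and 613 and 405 lay just inside the limit. UMIs were summed per library and class to CPM, with exact Poisson 95% intervals, exact conditional binomial intervals for folds, and Clopper-Pearson intervals for shares. "Past the fold" means a ratio of (CPM + 5) of at least 1.5 with 20 or more UMIs over both libraries. These ratios were tested on simulated data.

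The sensors, the pathway list and the markers were chosen with earlier results of these data known. Named genes were the 10 sensors, the genes of the pathway list past the fold in monocyte-like cells, and the 2 genes most correlated with each sensor. Irf3, Tbk1, Trim25 and Ripk3 were named after their values were seen. Clusters came from leidenalg 0.10.2 at resolution 1. Other settings were tried, 14 listed at the start and 4 chosen after seeing the data.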

Additional observations from a re-analysis of the deposited data

Results flagged for a closer look

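Samhd1 differed between the libraries in opposite directions in 2 cell classes: the log2 difference of (CPM + 5), library labelled knockout over control, was -0.71 in NK-cell-like cells and 0.82 in intermediate cells between monocytes and macrophages. Of all genes, 15.5% were lower past the fold in NK-cell-like cells and 9.1% were higher past it in intermediate cells. In the library labelled knockout, 20 of 174 intermediate cells lay in the interferon-led cluster and held 23.7% of the class's Samhd1 UMIs. Each value rests on 1 pool per group, and the difference between the 2 classes was not tested.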

How the results depend on the processing

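No paired analysis was possible because each group is 1 pooled library, and no replicate could be left out. In monocyte-like cells Ddx58, Ifih1, Dhx58, Zbp1 and Eif2ak2 were past the fold under 18 of 18 alternatives and Mb21d1 under 13. In macrophage-like cells Zbp1 passed under 17 and Ifih1 under 15. Of 1211 ratios of single sensors, 1114 kept their value within the counting interval, 90 moved and 7 reversed. All these counts include the alternatives with no minimum of UMIs and with a minimum of 100 UMIs. Those change only which genes count as measured, so a ratio cannot move under them. The difference in cells with 2 or more sensors, 22.86 percentage points in monocyte-like cells, was 17.67 with classes from named clusters, 17.36 with Xist and 14.73 with Y-linked transcripts, and in macrophage-like cells 9.066 became 2.663 with Y-linked transcripts. The count of higher sensors in macrophage-like cells, 2, became 1 with named clusters, 4 when thinned, 0 with Y-linked transcripts and 1 without the interferon-led cluster. In T-cell-like cells 1 became 2 with a pseudocount of 1. It became 0 at a mitochondrial limit of 5%, with each cell weighted equally, with Xist, and without barcodes holding myeloid markers. In B-cell-like cells 2 became 0 at the limit of 5% (50 and 22 cells) and with a minimum of 100 UMIs. It became 1 when thinned, within each sex and without barcodes holding myeloid markers. The 1 lost was Eif2ak2 with Y-linked transcripts and Zbp1 in the other cases. In NK-cell-like cells 1 became 2 at the limit of 5% and with Xist, and 0 when thinned, with a minimum of 100 UMIs and with Y-linked transcripts.

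The reversed log2 differences were, at the limit of 5%, Zbp1 (-0.77) and Eif2ak2 (-1.81) in B-cell-like cells. With Y-linked transcripts they were Mb21d1 in NK-cell-like (-2.11, 15 cells), and Ddx58 in cDC1-like (-0.87, 22 cells) and migratory-DC-like cells (-0.60, 17 cells). When thinned it was Zbp1 in cDC1-like cells (-0.10). Without the barcode holding most UMIs of the gene it was Ifih1 in plasmacytoid-DC-like cells (0.27 in place of -1.24). The cause of these reversals was not tested, and several of them rest on few cells or UMIs. With 1 pool per group, genotype, sex, animal and library preparation cannot be told apart, and lymphoid results rest on few UMIs.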
